A study of Bos taurus with 27 samples.

Results

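Members of the network that couples MYC and MDM2 to the cell cycle were measured in the rumen epithelium (RE) of fattening cattle. Probes were selected whose gene name on the array equaled MYC, MDM2, CDKN1A, CDKN1B, CDKN2A, CDKN2C, RB1, E2F1 or NPM1. Of these 9 names, 8 were carried by 1 probe each, among 15008 probes other than controls with 14952 gene names. No probe carried the name CDKN2A, which was not analysed here. All 8 accessions were found under the same symbol in the RefSeq gene table.

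The cattle were 9 Japanese Black animals, each biopsied 3 times. The RE was taken at 14 months in the early, 21 months in the middle and 29 months in the late fattening stage, and RNA of each biopsy was hybridized to 1 one-color array. All animals were castrated, fitted with a rumen fistula and fed concentrate with rice straw, with a larger share of concentrate at the middle and late stages than at the early stage. No group was kept on forage, so that age, body weight and time on the diet changed together. The first period compares the middle with the early stage, the second period the late with the middle stage, and the total period the late with the early stage. A level is the log2 processed intensity minus the median of its array, and a change is a difference of such levels within animals. Arrays whose sample titles end in the same number were taken as those of 1 animal. A change was called when its adjusted *P* was below 0.05 in a limma model of all 27 arrays with the animal as a block.

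MYC is a transcription factor that drives growth and ribosome production. MDM2 is a ubiquitin ligase that marks other proteins, and itself, for degradation. CDKN1A (p21), CDKN1B (p27) and CDKN2C (p18) inhibit cyclin-dependent kinases (CDKs), whose activity otherwise releases E2F1 from RB1 and opens S phase. NPM1 is an abundant nucleolar protein of ribosome assembly. In the RE, the basal layer divides while cells above it differentiate, keratinize and are shed.

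MDM2, CDKN1A and CDKN2C gave the clearest differences between stages, so the first 30 bases of the 60-base probes that read them are shown, as deposited and in lower case throughout because no stretch was singled out. The positions given in the array files refer to assembly UMD 3.1. The MDM2 probe was placed on the minus strand at chr5:45178120-45178144, over 25 of its 60 bases, as happened for 2.97% of the probes placed. The CDKN1A probe lay at chr23:10565404-10565463 on the plus strand and consisted of 80% G and C, against a median of 45% over all probes. The CDKN2C probe lay at chr3:95924226-95924285 on the minus strand. No other probe shared 20 bases in a row with any of the 8. Exon and UTR positions were not determined.
MDM2: aattttttggtgggagggtgggagtcaagg
CDKN1A: tgcaccctcgtgactcgctcccccgagcgg
CDKN2C: ttttctccttgcctctccctttgccagtct

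The middle-stage arrays were dimmer than the others, and this bears on every change into or out of that stage. Their median processed signal ranged from 8.05 to 28.1, against 34.5 to 47.5 at the early and 31.4 to 45.9 at the late stage. Between 48.5% and 71.5% of their probes stood well above background, against 68.8% to 78.1% and 68.4% to 73.7%. The median change of all probes was 0.32 in the first, −0.27 in the second and 0.03 in the total period, and 0.08, 0.10 and 0.14 over the 6797 probes that all 27 arrays measured well above background. Early and middle arrays shared 1 slide, which held the early array of animal 9 and the middle arrays of animals 1 to 7. The middle arrays of animals 8 and 9 were on slide 3. The late arrays shared no slide with the other stages, so that slide and stage cannot be told apart there. None of the 8 probes was saturated or marked as an outlier. Of them, 6 were well above background on all arrays, whereas CDKN1B missed 1 middle array and E2F1 missed 2 early and 6 middle arrays.

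**Figure D1:**
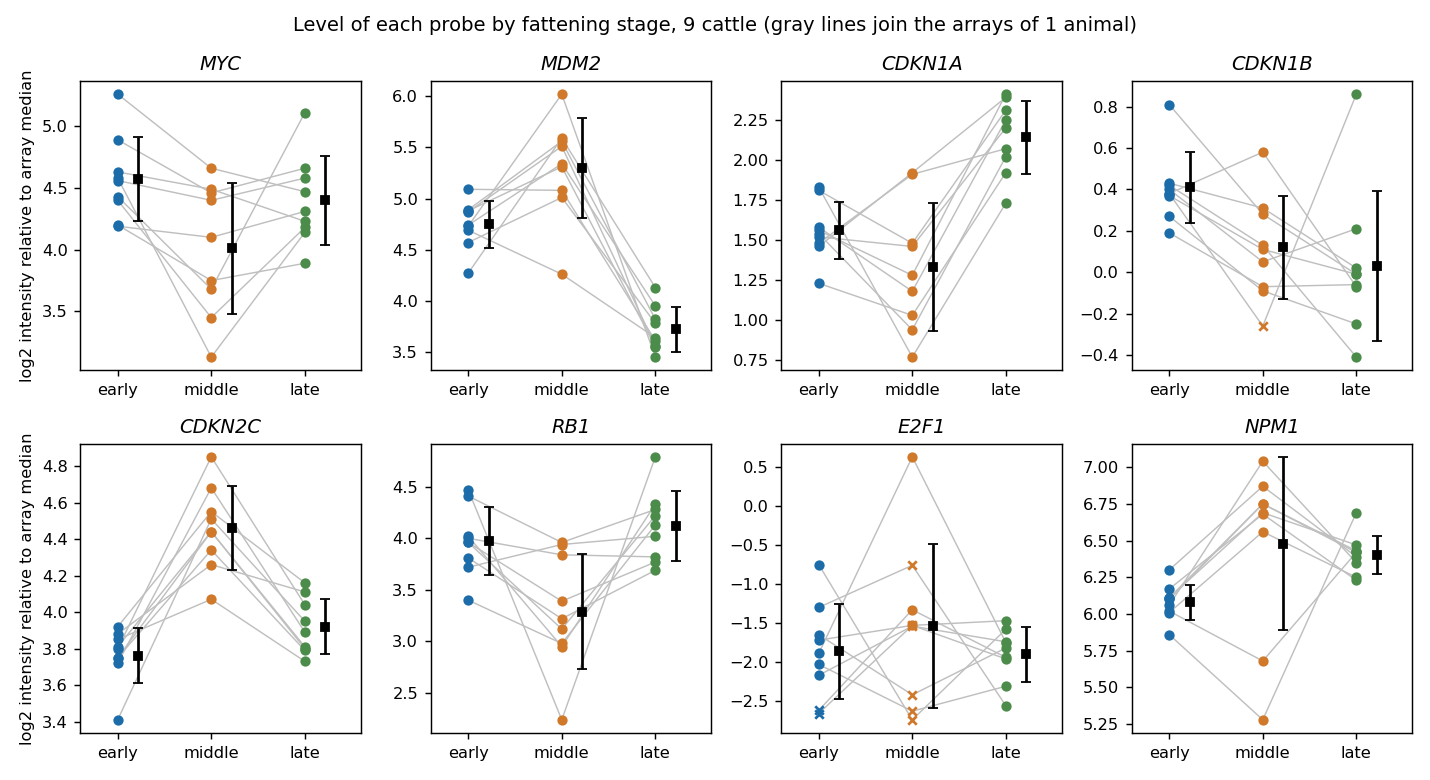
Level of each of the 8 probes (log2 intensity relative to the array median) at the early, middle and late stages. Points are single arrays, with a cross where the probe was not well above background, gray lines join the 3 arrays of an animal, and black squares with bars are the mean ± SD of 9 cattle. The late points of MDM2 lie below all early and all middle points, and the middle points of CDKN2C lie above all early points.

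MDM2, the ubiquitin ligase, was highest at the middle stage and lowest at the late stage. Its level had a lowest, median and highest value of 4.27, 4.74 and 5.09 at the early stage, 4.26, 5.34 and 6.02 at the middle stage, and 3.45, 3.64 and 4.13 at the late stage. Every late array lay below every array of the earlier stages, while the early and middle ranges overlapped. The middle array of animal 4, the dimmest of all 27, was the lowest of its stage. MDM2 fell in all 9 cattle in the second period, by 1.58 on the log2 scale (2.98-fold, SE 0.17, 95% interval −1.93 to −1.23, limma adjusted *P* = 2.06e-07). This fall was called in all 21 fits, with values of −1.76 to −0.71, the smallest being that after normexp background correction (limma adjusted *P* = 0.0442). It also fell in all 9 cattle in the total period, by 1.03 (2.04-fold, SE 0.17, 95% interval −1.38 to −0.67, limma adjusted *P* = 0.000268), and 2.84% of all probes had a lower change. The total-period fall was no longer called with the slide as a random block (−0.90, limma adjusted *P* = 0.119) or after normexp (−0.77, limma adjusted *P* = 0.151). In these bulk biopsies, fewer cells of a type and less RNA per cell cannot be told apart.

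The first-period change of MDM2 was a smaller rise. It was 0.55 (SE 0.17, limma adjusted *P* = 0.00757), upward in 7 of 9 cattle, and 0.23 above the median change of all probes. Before scaling, the median processed signal of MDM2 was 1100 (early), 734 (middle) and 482 (late). The rise was called in 20 of 23 fits, but after normexp background correction (offset 50) the change was −0.06. With normexp the first-period median of the set of 6797 probes described above was −0.29, against 0.08 without it. The 2 middle arrays of slide 3 gave MDM2 levels of 5.59 to 6.02, above the 4.26 to 5.56 of the 7 on slide 2.

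**Figure D2:**
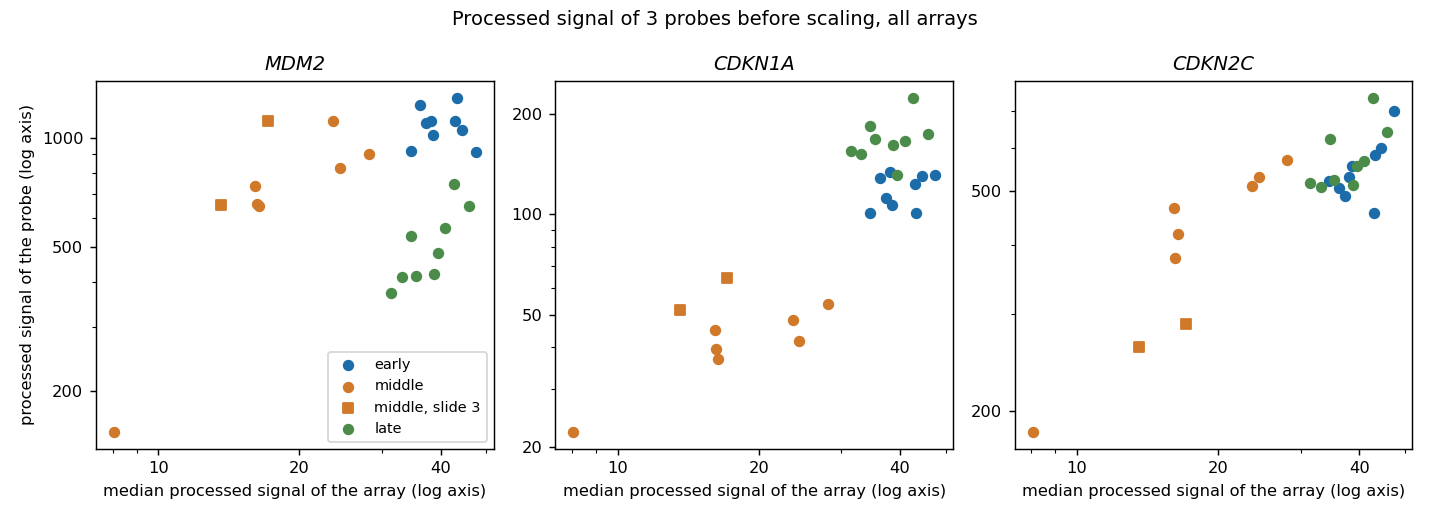
Processed signal of the MDM2, CDKN1A and CDKN2C probes before any scaling, against the median processed signal of the array, both on log axes, for the 27 arrays colored by stage. Squares are the 2 middle-stage arrays of slide 3. Late arrays, with medians of 31.4 to 45.9 close to those of early arrays, gave lower MDM2 and mostly higher CDKN1A signals, whereas all middle arrays lay to the left.

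CDKN1A, a broad CDK inhibitor, moved the other way and was highest at the late stage. Its level was 1.23, 1.54 and 1.83 (lowest, median and highest) at the early stage, 0.77, 1.28 and 1.92 at the middle stage, and 1.73, 2.20 and 2.41 at the late stage. The lowest late array, that of animal 2, was the only one that reached into the early range, and late and middle levels met only at the middle arrays of animals 8 and 9. CDKN1A rose in all 9 cattle in the second period, by 0.82 (1.76-fold, SE 0.13, 95% interval 0.54 to 1.09, limma adjusted *P* = 2.59e-05). It rose in 8 of 9 cattle in the total period, by 0.59 (1.50-fold, SE 0.13, 95% interval 0.31 to 0.87, limma adjusted *P* = 0.00392), and 93.8% of all probes had a lower change. With the slide as a random block the total-period change was 0.61 and was not called (limma adjusted *P* = 0.203). The first-period change of −0.23 was not called (95% interval −0.50 to 0.05, limma adjusted *P* = 0.137). The middle arrays of slide 3 read 1.91 to 1.92 and those of slide 2 0.77 to 1.48, and without the middle arrays of animals 4, 8 and 9 the first-period change was −0.44 (limma adjusted *P* = 0.00299).

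CDKN2C, an inhibitor of CDK4 and CDK6, had its highest scaled level at the middle stage. Before scaling, its median processed signal was 530 (early), 418 (middle) and 555 (late), lowest at the middle stage. Its level was 3.41, 3.80 and 3.92 (lowest, median and highest) at the early stage, 4.07, 4.44 and 4.85 at the middle stage, and 3.73, 3.89 and 4.16 at the late stage. Middle and early arrays did not overlap, while 2 late arrays, those of animals 1 and 9, reached above the lowest middle array. The 2 middle arrays of slide 3 read 4.07 to 4.26, below the 4.34 to 4.85 of the 7 on slide 2. CDKN2C rose in all 9 cattle in the first period, by 0.70 (1.62-fold, SE 0.10, limma adjusted *P* = 1.36e-05), and fell in all 9 in the second, by 0.54 (1.45-fold, SE 0.10, limma adjusted *P* = 0.000103). With the slide as a random block the rise was 0.66 and was called (limma adjusted *P* = 0.00179). With a fixed slide block it was 0.82 and was not called (limma adjusted *P* = 0.157). On slide 2 alone, which held 1 early array, it was 0.67. After normexp background correction these changes were 0.25 (limma adjusted *P* = 0.281) and 0.05, the latter with the opposite sign. The median change of the set of 6797 probes was then −0.29 and 0.55, against 0.08 and 0.10 without normexp. Late and early levels did not differ beyond the threshold (0.16, 95% interval −0.05 to 0.37, limma adjusted *P* = 0.305).

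A hemoglobin probe moved in step with CDKN2C, which is a description only, since all values share the array scaling and the stage means. The probe whose level was most like that of CDKN2C over the 27 arrays, among 6764 probes that were well above background and complete on all of them, was HBA, the alpha chain of hemoglobin (Pearson r = 0.95), followed by KRT19 (r = 0.94) and GNB3 (r = 0.91). The summed level of the 4 red blood cell markers was 6.70 to 7.63 at the middle stage, above the 5.28 to 6.09 of the early and 5.48 to 6.49 of the late stage. Only HBA of these 4 was well above background on all arrays of every stage, so that the sum is in effect the HBA level. HBB was well above background on 1 early, 0 middle and 1 late array. The part of red blood cells in the CDKN2C values was not tested.

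CDKN1B had lower mean levels at each later stage, but no change passed the threshold. Its level was 0.19, 0.38 and 0.81 (lowest, median and highest) at the early stage, −0.26, 0.11 and 0.58 at the middle stage, and −0.41, −0.01 and 0.86 at the late stage. The 3 ranges overlapped, and 8 of 9 cattle had a lower level at the late than at the early stage. The change was −0.29 in the first period (limma adjusted *P* = 0.0752), −0.09 in the second (0.584) and −0.38 in the total period (95% interval −0.67 to −0.08, 0.0643). The total-period change was called in 6 of 21 fits, among them 75th percentile scaling (−0.50, limma adjusted *P* = 0.0194), the deposited log2 values (−0.49, 0.0204) and the fit without animal 9 (−0.48, 0.00332).

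RB1, the pocket protein that holds E2F factors, had its lowest levels at the middle stage. They were 3.40, 3.96 and 4.47 (lowest, median and highest) at the early stage, 2.24, 3.22 and 3.96 at the middle stage, and 3.69, 4.13 and 4.79 at the late stage. All ranges overlapped, and the lowest value was again that of animal 4 on the dimmest array. RB1 fell in 8 of 9 cattle in the first period, by 0.68 (SE 0.21, limma adjusted *P* = 0.00739), and rose in 8 of 9 in the second, by 0.82 (SE 0.21, limma adjusted *P* = 0.00151). The late and early stages differed by 0.15 (95% interval −0.29 to 0.58, limma adjusted *P* = 0.692). The first-period change was −0.01 once the slide was a fixed block (SE 0.86). With the slide as a random block, neither the first-period change (−0.63, limma adjusted *P* = 0.121) nor the second-period change (0.70, limma adjusted *P* = 0.116) was called.

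E2F1, the activator of S-phase genes, was too dim to be followed through the middle stage. It was well above background on 7 early, 3 middle and 9 late arrays. Its level ranged from −2.66 to −0.75 (early), −2.74 to 0.63 (middle) and −2.56 to −1.47 (late). The highest value came from animal 7 at the middle stage. No change was called, with limma adjusted *P* values of 0.394, 0.330 and 0.960. The intervals were the widest of the 8 probes, such as −0.73 to 0.66 in the total period. After normexp background correction, however, the first-period (0.23, limma adjusted *P* = 0.0111) and second-period changes (−0.25, limma adjusted *P* = 0.00603) were called.

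MYC was lowest at the middle stage. Its level was 4.19, 4.56 and 5.26 (lowest, median and highest) at the early stage, 3.13, 4.10 and 4.66 at the middle stage, and 3.89, 4.31 and 5.11 at the late stage. The ranges overlapped, but the level was lower at the middle than at the early stage in every animal. MYC fell by 0.56 in the first period (1.47-fold, SE 0.16, limma adjusted *P* = 0.00523) and rose by 0.38 in 7 of 9 cattle in the second (1.30-fold, SE 0.16, limma adjusted *P* = 0.0400). The late and early levels differed by −0.18 (95% interval −0.51 to 0.16, limma adjusted *P* = 0.499). The first-period fall was called in 20 of 23 fits, but not with the slide as a random block (−0.48, limma adjusted *P* = 0.119). The middle arrays of slide 3 read 4.40 to 4.49 and those of slide 2 3.13 to 4.66. The second-period rise was called in 10 of 21 fits, with values of 0.19 to 1.03, and it was not called with 75th percentile scaling.

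NPM1, the nucleolar protein of ribosome assembly, had a median processed signal of 2720 (early), 1740 (middle) and 3320 (late). Its level was 5.86, 6.10 and 6.30 (lowest, median and highest) at the early stage, 5.28, 6.69 and 7.04 at the middle stage, and 6.23, 6.42 and 6.69 at the late stage. The middle arrays were split by slide, since the 2 on slide 3 read 5.28 to 5.68 and the 7 on slide 2 read 6.56 to 7.04. The early arrays lay between these 2 sets, and the highest late array reached into the upper one. The first-period rise of 0.39 was close to the threshold (SE 0.17, limma adjusted *P* = 0.0469) and became −0.18 after normexp background correction, while without the middle arrays of animals 4, 8 and 9 it was 0.63 (limma adjusted *P* = 1.97e-05). The late level was above the early level in all 9 cattle, by 0.32 (95% interval −0.03 to 0.68), but this was not called (limma adjusted *P* = 0.195). In a fit of the early and late arrays alone it was called (limma adjusted *P* = 0.0163).

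The share of members called was read against that of all probes. In the first period 5 of 8 members were called, 3 higher and 2 lower, against 66.5% of all probes (45.3% higher and 21.3% lower). In the second period 5 of 8 were called, 3 higher and 2 lower, against 71.5% of all probes, the larger part of which (44.6%) were lower. In the total period 2 of 8 were called, against 20.1% (11.2% higher and 8.93% lower). CDKN2C was the only member whose stages did not overlap in the first period, where 6.24% of probes lay wholly higher, and MDM2 was the only one in the second and total periods, where 10.4% and 2.49% lay wholly lower. Only MDM2 was called with a change of at least 2-fold, in the second and total periods, as were 29.0% and 2.79% of probes in the same direction. Without the middle arrays of animals 4, 8 and 9 the counts were 6, 6 and 4.

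**Figure D3:**
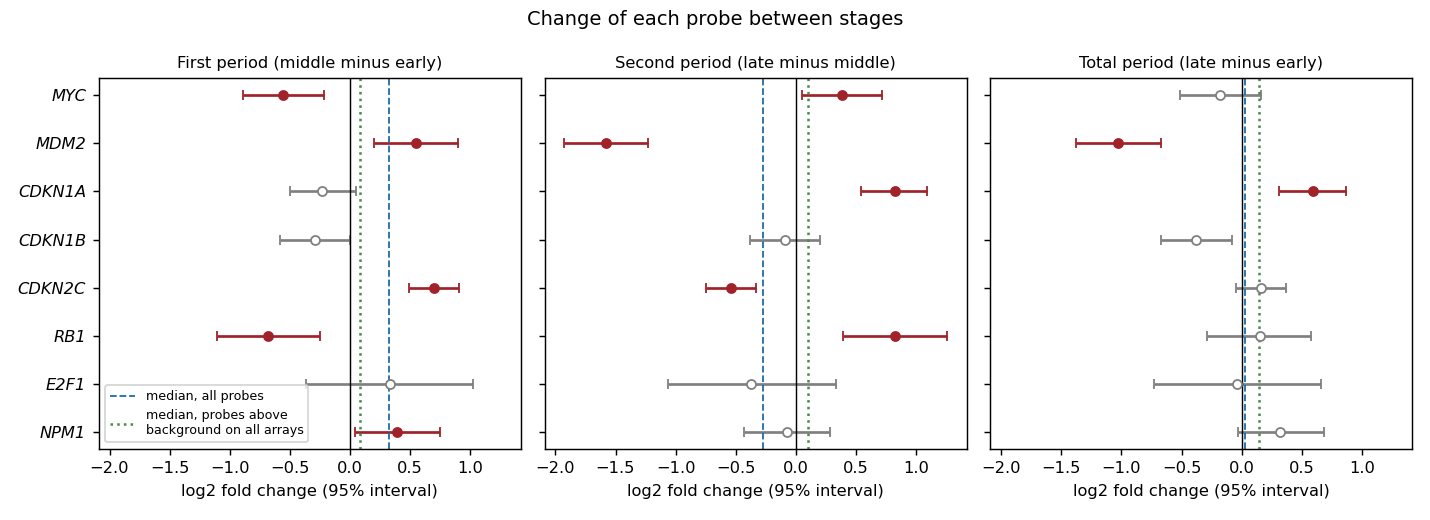
Change of each probe in the first, second and total periods, as log2 fold change with its 95% interval from the limma model. Filled red points have an adjusted P below 0.05, the dashed line is the median change of all 15008 probes and the dotted line that of the 6797 that every array measured well above background. MDM2 at −1.58 and −1.03 and CDKN1A at 0.82 and 0.59 lie away from both medians in the second and total periods.

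Apart from CDKN2C, the probes that most resembled a member over the 27 arrays were the following, given as a description since all values share the array scaling and the stage means. MDM2 was most like RBM6 (r = 0.94), TMEM107 (r = 0.93) and AHCY (r = 0.93), which like it were lowest at the late stage (AHCY means 7.90, 8.26 and 6.81). CDKN1A was most like FOXH1 (r = 0.88), SSRP1 (r = 0.87) and PSENEN (r = 0.87). MYC was most like TRIB1 (r = 0.85), RB1 like SLC25A33 (r = 0.90) and NPM1 like SREK1IP1 (r = 0.87), whereas the highest values for CDKN1B (0.71) and E2F1 (0.67) were lower.

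Other genes of the network were counted by list, to be read against the 66.5%, 71.5% and 20.1% of all probes called in the first, second and total periods. Probes not well above background were counted too, in the lists as over all probes. Of 22 genes for partners and antagonists of MYC, 7 were called higher and 6 lower in the first period, 6 and 8 in the second, and 3 and 1 in the total period, which made 59.1%, 63.6% and 18.2%. MNT, a repressor that competes with MYC for MAX, rose by 1.66 (limma adjusted *P* = 8.31e-05) and then fell by 2.44 (8.08e-07). MLXIPL, a glucose-responsive factor that pairs with MLX, fell by 1.02 in the first period (0.00953) and KAT5, a histone acetyltransferase, rose by 1.16 in the second (7.72e-07), but only 3 and 4 of 9 middle arrays measured them well above background. MXD4, another MAX-binding repressor, rose by 0.75 (0.000306) over the total period and MLX, a MAX-like protein, fell by 0.44 (0.0221). The fall of MLX was called in 15 of 21 fits.

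Of 39 MYC target genes, most of them for ribosome production, 14 were called higher and 9 lower in the first period and 12 and 17 in the second, or 59.0% and 74.4%. These counts include TERT and NME1, which were well above background on 0 early and 0 middle arrays. In the total period 4 were called (10.3%), all lower, with a median change of −0.08 against 0.03 over all probes. Among them, POLR1B was well above background on 5 early arrays and 1 late array. The methods' t-test called 6 higher and 6 lower in that period. UBTF, a factor for RNA polymerase I, rose by 1.68 (limma adjusted *P* = 2.18e-05) and then fell by 2.22 (5.17e-07). PPAN, a ribosome assembly factor, fell by 0.83 in the total period (0.000494). NPM3, a relative of NPM1, fell by 1.47 in the first period (2.73e-05) and rose by 1.29 in the second (6.12e-05), but only 2 of 9 middle arrays measured it well above background and its second-period change was −0.02 after normexp.

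Among the 3 other CDK inhibitors, CDKN2B, the neighbor of CDKN2A, rose by 1.39 in the second period (limma adjusted *P* = 9.02e-05) and 0.84 in the total period (0.0259). The second-period rise was called in all 21 fits and the total-period rise in 15 of 21. CDKN1C rose by 0.56 in the first (0.00987) and fell by 0.47 in the second period (0.0243), with the opposite signs after normexp (−0.01 and 0.17). Its fall was called in 12 of 21 fits. CDKN2D fell by 0.44 in the first period (0.0351), but this was called in 12 of 23 fits, with values of −0.51 to −0.05, and 6 of 9 middle arrays measured it well above background. Of 19 cyclins, CDKs and CDC25 phosphatases, 4 were called higher and 5 lower in the first, 4 and 7 in the second, and 1 and 1 in the total period (47.4%, 57.9% and 10.5%). The gene called lower in the total period was CDC25A, well above background on 0 early and 0 late arrays. CCNA1, called in the first and second periods, was well above background on 0 arrays of each stage. CCND1 (cyclin D1) rose by 1.03 in the first period (4.40e-06) and fell by 0.48 in the second (limma adjusted *P* = 0.00337), with a rise of 0.55 over the total period (0.00662). CDK6, a kinase that CDKN2C inhibits, fell by 0.95 (1.58e-07) and rose by 0.93 (6.78e-08), and the mitotic phosphatase CDC25C fell by 1.06 in the second period (0.000876).

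Of 17 relatives and partners of RB1 and E2F1, 8 were called higher and 5 lower in the first period and 4 and 9 in the second, 76.5% in each and near the share of all probes. Over the total period 6 were called (35.3%), all lower, with a median change of −0.26 against 0.03 over all probes. Among them, E2F2 was well above background on 1 early and 0 late arrays and E2F3 on 6 early and 0 late arrays. RBL1 (p107), a pocket protein like RB1, rose by 1.46 (limma adjusted *P* = 1.26e-06) and then fell by 2.26 (2.74e-09), opposite in sign to RB1. E2F5, a repressive family member, fell by 0.70 (0.000558) and rose by 0.76 (0.000208), and MYBL2 fell by 0.95 in the total period (0.00110). MYBL2 had risen by 0.65 in the first period (limma adjusted *P* = 0.0044). Of 16 E2F target genes, 2 and 4 were called higher and lower in the first, 3 and 4 in the second, and 1 and 2 in the total period. These were 37.5%, 43.8% and 18.8% of the list. MCM3, a helicase subunit of replication, rose by 1.84 in the second (1.46e-08) and 0.96 in the total period (0.000303), and thymidine kinase TK1 fell by 0.55 in the total period (0.00850). MCM3 had fallen by 0.88 in the first period (limma adjusted *P* = 0.000104). Of the GINS complex of the replication fork, GINS1 rose by 0.53 (0.00275) and then fell by 0.96 (7.56e-06). GINS2 fell by 1.14 in the first period (5.51e-05) and rose by 1.03 in the second (limma adjusted *P* = 0.000102).

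**Figure D4:**
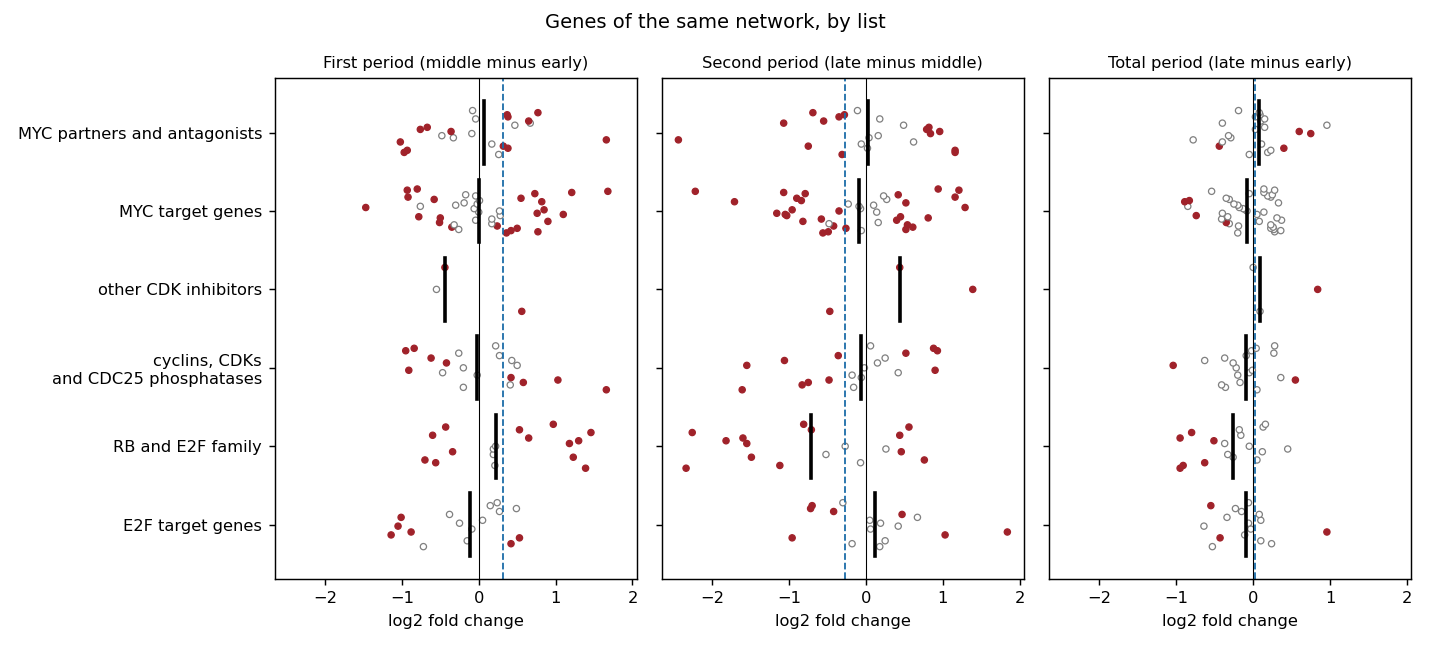
Change of each gene of 6 lists of the same network, without the 8 members, in the first, second and total periods (log2 fold change). Filled red points have an adjusted P below 0.05, black bars are the list medians and the dashed line is the median of all probes. Lists spread to both sides of 0, and the total period has the fewest filled points.

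The tissue label was checked with marker genes. For stratified epithelium, 21 of 24 markers were well above background on every array at the early and late stages and 20 at the middle stage, KRT4 being measured on none. Their summed level was 12.09 to 12.52 (early), 10.29 to 12.43 (middle) and 12.36 to 12.63 (late). The summed level of 6 smooth muscle markers was 5.96 to 7.86, 5.59 to 9.11 and 6.16 to 6.92, that of 8 fibroblast markers 6.47 to 9.56, 6.50 to 10.00 and 6.16 to 8.67, that of 16 leukocyte markers 5.16 to 6.26, 4.97 to 5.60 and 5.29 to 6.17, and that of 7 endothelial markers 5.17 to 6.14, 5.53 to 6.63 and 5.61 to 6.29. CD4, ITGAM and CDH5 were not measured above background on any array. The summed level of the stratified epithelium markers had a lower median at the middle stage (11.52, against 12.31 early and 12.46 late) and was more spread, with overlapping ranges. In the first period 13 of these 24 markers were called lower and 3 higher. The median summed level was highest at the middle stage for smooth muscle (6.57, 7.63 and 6.40), fibroblasts (8.12, 8.84 and 8.17) and endothelium (5.68, 6.04 and 5.82), but not for leukocytes (5.36, 5.50 and 5.81). Of the 6 smooth muscle markers 3 were called higher and 0 lower in the first period, and 0 higher and 5 lower in the second. Only 2 of these 6 were well above background on all 9 arrays of each stage. For 6 markers of rumen epithelium metabolism the median summed level was 12.03 (early), 12.32 (middle) and 11.99 (late). The part of any of these lists in the values above was not tested.

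**Figure D5:**
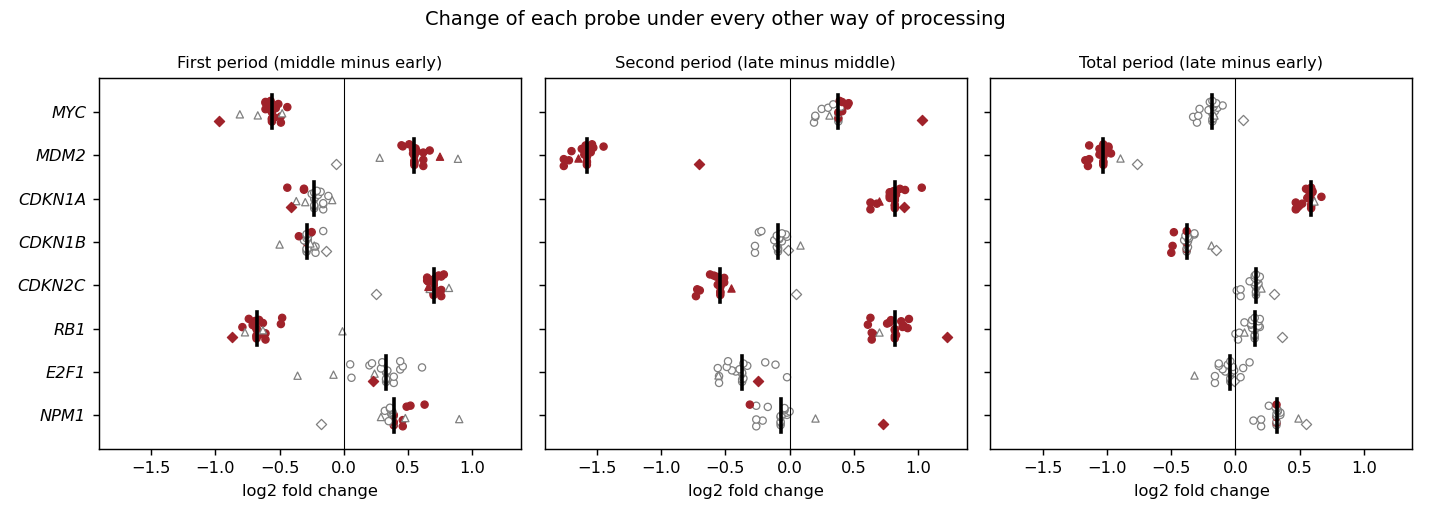
Change of each of the 8 probes in the first, second and total periods under the other ways of processing (log2 fold change). Black bars are the values reported, circles other scalings, filters, tests and left-out animals, triangles fits that take the slide into account, diamonds normexp background correction, and filled red symbols have an adjusted P below 0.05. In the second period all symbols of MDM2 and of CDKN1A are filled.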

How the data were processed

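RNA of 27 RE biopsies, 9 cattle at each of 3 stages, was measured on 1-color bovine arrays on 5 slides scanned on 4 days. The deposited intensity values came from Agilent Feature Extraction as run by the authors (11.0.1.1 in the file headers, 9.5 in the methods), which subtracts background and flags spots well above background, saturated or outlying, as 0 or 1. They also deposited log2 values, which served as an alternative. The median difference of these values from 75th percentile scaling was at most 0.0207 on any array. Their extraction label names other tissues, whereas the tissue label is rumen epithelium.

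Outlier spots were left missing, spots of a probe averaged and the array median of log2 intensity subtracted, as in the methods. With limma 3.58.1 (R 4.3.3, statmod 1.5.0), stages and animals (fixed block) were fitted together, with Benjamini-Hochberg adjustment over 15008 probes and a threshold of 0.05. Arrays were paired by the number that ends the sample title, taken to name the same animal at each stage. The mean same-animal correlation of deviations was 0.158. Positive for 24 of 27 pairs, it ranged from −0.151 to 0.461. The procedure was tested on simulated data, which held no slide effects and no dimmer middle arrays and so cannot speak to either. The number of arrays and their signal over background limit precision.

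The members and lists were chosen with earlier results of these data known. Named are all members, the most raised and lowered called gene of each list and period that every array of a stage measured well above background, and the 3 most similar probes. Some genes and lists are not reported here. Accessions of 11194 probes matched the RefSeq gene table. Alternatives were other scalings and background correction, filters, slide blocks, the methods' paired test on the same values, fewer stages and left-out animals. The fit without the middle arrays of animals 4, 8 and 9 was chosen after seeing the data.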

Additional observations from a re-analysis of the deposited data

Results flagged for a closer look

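Of 24 groups of 9 arrays, 8 probes at 3 stages, 3 held an array whose gap to its neighbor was above the 95% critical value of Dixon's test, and chance gives about 1 in 20. CDKN1B stood at 0.81 in animal 8 at the early stage, with the others between 0.19 and 0.43. CDKN1B stood at 0.86 in animal 9 at the late stage, with the others between −0.41 and 0.21, and that array was the only late one on its slide. CDKN2C stood at 3.41 in animal 4 at the early stage, with the others between 3.72 and 3.92.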

How the results depend on the processing

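MDM2 and CDKN1A were called with the same sign in all 21 fits of the second period (−1.76 to −0.71 and 0.63 to 1.03). In the total period MDM2 was called in 19 of 21 (−1.17 to −0.77) and CDKN1A in 20 of 21 (0.47 to 0.67). Leaving out 1 animal gave 4 to 7 members called in the first, 4 to 5 in the second and 2 to 3 in the total period. Leaving out animal 9 gave the 7 of the first and the 3 of the total period. Without the replicate block of animals the counts were 5, 4 and 2, MYC being lost in the second period.

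With the slide as a random block (correlation 0.292) the counts were 2, 3 and 0, and at an unadjusted *P* below 0.05 the last was 2. With a fixed slide block and on slide 2 alone the first period gave 0 (1 unadjusted each). In the total period normexp gave 1, CDKN1A, while 2 stages in the fit, or leaving out the middle arrays of animals 4, 8 and 9, gave 4, adding CDKN1B and NPM1.

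Signs turned with normexp for MDM2 (−0.06), NPM1 (−0.18) and CDKN1C (−0.01) in the first period, CDKN2C (0.05), NPM1 (0.73), CDKN1C (0.17) and NPM3 (−0.02) in the second, and MYC (0.06) in the total period. With the slide they turned for E2F1 (−0.08 fixed, −0.36 on slide 2 alone) and MLXIPL (0.47 fixed) in the first period and CDKN1B (0.08) and NPM1 (0.20) in the second as a random block. Quantile normalization turned RB1 (0.00) and E2F1 (0.04) in the total period. Leaving out animal 4 turned NPM1 in the second (0.00) and E2F1 in the total period (0.06), and animal 9 E2F1 (0.11), within leave-one-out ranges of −0.26 to 0.00 for NPM1 and −0.13 to 0.11 for E2F1. Causes were not tested.

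The median change of all probes moved from −0.27 to −0.46 in the second period with 75th percentile scaling and from 0.32 to 0.09 in the first with quantile normalization. With normexp (offset 50) the median of the set of 6797 probes moved from 0.08 to −0.29 in the first period. It moved from 0.10 to 0.55 in the second and from 0.14 to 0.23 in the total period. Signal over background limits E2F1, CDKN1B and all middle-stage values.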
